A study of Mus musculus with 12 samples.

Results

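The NMDA receptor subunit genes were examined in striatal RNA of mice with a knockout of Taar5, the gene of trace amine-associated receptor 5, and of wild-type (WT) littermates. The 7 members were found by symbol among the 57132 features of the count table, namely Grin1, Grin2a, Grin2b, Grin2c, Grin2d, Grin3a and Grin3b. Of these, 6 passed the filter on low values (0.5 CPM, counts per M of library size, in at least 3 libraries) and were among the 13902 features tested, while Grin3b did not pass. The 12 samples were 6 TAAR5-KO and 6 WT animals, all 10 months of age, of C57Bl/6 background, with no treatment named. The striatum was what remained of a coronal slice in front of bregma after the cortex had been cut away, so it is bulk tissue with several cell types. The sources used here do not describe the allele of the knockout. Males and females were used, but the libraries (TAAR5-KO label on NK1 to NK6, WT label on NK7 to NK12) carry neither a sex nor an animal number.

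NMDA receptors are glutamate-gated cation channels that are blocked by magnesium at rest and need glycine or D-serine together with glutamate to open. Grin1 encodes the obligatory GluN1 subunit, which binds the co-agonist. The 4 Grin2 genes encode the glutamate-binding GluN2 subunits, which set the kinetics, the magnesium block and the scaffold contacts of the channel, and both Grin3 genes encode glycine-binding GluN3 subunits that lower the calcium permeability. In the adult forebrain GluN2A and GluN2B predominate, GluN2C is best known from cerebellar granule cells and astrocytes, GluN2D from interneurons and GluN3A from the juvenile brain. In the striatum the receptor receives cortical and thalamic input on spiny projection neurons.

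The genes are alike in sequence, and reads of 100 bases had to be assigned to 1 of them. Coding sequences of the members (GENCODE M39 on GRCm39) were compared for all 21 pairs. The smallest number of differences in any window of 100 coding bases was 9, between Grin2c and Grin2d, and the longest identical run was 34 bases, between Grin2b and Grin2c. No full read from the coding sequences compared can therefore match 2 members without a mismatch.

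Each member lies on a chromosome of its own. The coordinates (GRCm39) are 2:25181193-25209199 for Grin1, 16:9385762-9813424 for Grin2a, 6:135690231-136150509 for Grin2b, 11:115139995-115158069 for Grin2c, 7:45481307-45527802 for Grin2d and 4:49661611-49845744 for Grin3a, all on the minus strand, and 10:79806549-79813024 on the plus strand for Grin3b. Exons of some members overlap a neighbour, mostly on the opposite strand, and the strand setting of the counting is not given in the sources used here. Grin3b shares 1059 of its 3296 exon bases with Tmem259, which had 29 to 168 counts per library, so the count of Grin3b is uncertain. Grin1 shares 1307 bases with Grin1os (1 to 14 counts) and Grin2d shares 643 with Gm45441 (0 to 5 counts). Grin2b shares 325 bases with ENSMUSG00000121908, a protein-coding feature on the same strand (0 to 2 counts), and fewer with features on the opposite strand. Grin2c overlaps only Gm56352, which had 0 counts in every library.

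Total counts ran from 11269915 to 34824450 per library, but ribosomal RNA took 64.3% to 88.1% of them, and 1819907 to 6399188 counts remained outside it. Taar5 itself had 1 to 6 counts in each library labelled TAAR5-KO, and 0 in 4 of the 6 libraries labelled WT with 1 and 2 counts in the others. This order is the reverse of what the labels alone would lead one to look for. It rests on few counts, the allele is not described, and the reason was not tested. Libraries are therefore called "labelled TAAR5-KO" and "labelled WT", and every direction follows those labels. Values are CPM on library sizes scaled by the trimmed mean of M-values (TMM). Libraries also differed in how counts depended on GC content: the slope of log2 CPM per 10 GC points was −0.22 to −0.0010 in libraries labelled TAAR5-KO and −0.066 to 0.20 in those labelled WT, a gap with p = 0.0173 in the two-sided exact permutation test.

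Grin2b was the most abundant member per length, followed by Grin2a and Grin1. On the scale of CPM per kb of merged exons, Grin2b had a level of 5.73 ± 1.13 (SD over the 12 libraries), Grin2a 2.39 ± 0.638, Grin1 1.93 ± 0.309, Grin2c 0.577 ± 0.141, Grin3a 0.544 ± 0.0976 and Grin2d 0.187 ± 0.0578. Grin3b came last at 0.00786 ± 0.0135. The level of Grin2b was 2.39-fold that of Grin2a and above it in 12 of 12 libraries. Grin2a and Grin1 overlapped in range, with Grin2a above Grin1 in 10 of 12 libraries. Grin2c and Grin3a could not be ordered, since Grin2c was the higher in 6 of 12 libraries. Grin3a exceeded Grin2d in all 12 libraries. The order depends on the length used. With the longest annotated transcript in place of merged exons, Grin1 (3.41 CPM per kb) stood above Grin2a (2.89) and Grin3a (0.858) above Grin2c (0.284). For Grin2c this length was 10235 bases, from a later annotation release, against 5037 merged exon bases in the count table, and for Grin3a it was 7788 against 12275.

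Grin2c (ENSMUSG00000020734.14), the GluN2C subunit gene, was lower in libraries labelled TAAR5-KO. It had 1.95 to 2.60 CPM (median 2.41) in libraries labelled TAAR5-KO and 2.76 to 4.34 CPM (median 3.45) in libraries labelled WT. Every library labelled TAAR5-KO lay below every library labelled WT. A full separation in this direction was found for 0.388% of all features tested, and a full separation in the other for 0.626%. The means were 2.35 ± 0.233 and 3.47 ± 0.543 CPM (SD, n = 6 each), which gave Grin2c a log2 fold change of −0.51 (SE 0.138, 95% interval −0.79 to −0.24), which is 30.0% lower. In the likelihood ratio test of edgeR over all features this passed the threshold of 0.1 (adjusted p = 0.0293). Of the 6 members tested, 1 was called, against 1.65% of all features (0.691% lower and 0.957% higher). Grin2c is also among the genes that the study lists as changed, so its selection is not independent of these samples.

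The Grin2c counts were low, between 25 and 165 per library, and the call was not stable. The quasi-likelihood test, which called 0.453% of all features, gave Grin2c an adjusted p of 0.0947. DESeq2, which called 177 of the 13902 features and left 7009 without an adjusted p, gave Grin2c 0.0546. In the likelihood ratio test without NK2, NK11 or NK12, the adjusted p was 0.102, 0.101 and 0.109, with log2 fold changes of −0.47, −0.51 and −0.46. Over all alternatives the adjusted p of Grin2c ran from 0.00961 to 0.700 and its sign did not turn. Grin2c is GC-rich, with 62.0% GC in its exons, more than 98.9% of the features tested. The 363 features within 2 GC points of it had a median log2 fold change of −0.12, against −0.0059 over all features, and 1.93% of them were called. With the GC trend of each library removed, the log2 fold change of Grin2c was −0.36 (adjusted p = 0.244, unadjusted p = 0.00546).

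**Figure D1:**
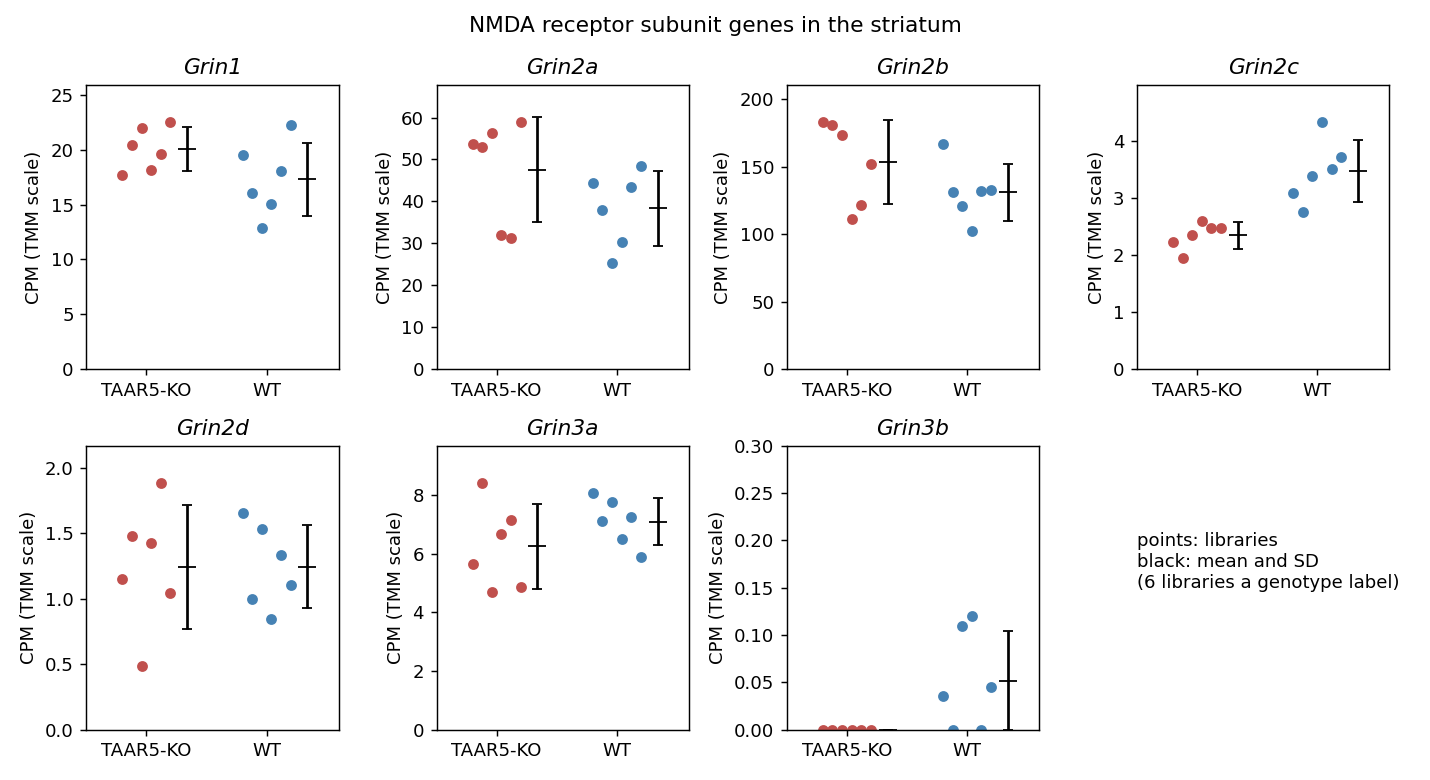
CPM on the TMM scale of the 7 subunit genes, with 1 point per library, TAAR5-KO label in red and WT label in blue, and mean and SD in black (6 libraries each). The Grin2c points labelled TAAR5-KO (1.95 to 2.60) all lie below those labelled WT (2.76 to 4.34), whereas the groups overlap for the other 6 genes.

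Astrocyte transcripts differed between the labels in the same direction as Grin2c. The summed CPM of 12 astrocyte markers was 281 to 384 in libraries labelled TAAR5-KO and 391 to 451 in libraries labelled WT, again without overlap. Among single features tested, 0.388% were fully separated in this direction. All 12 markers had log2 fold changes below 0 (median −0.33), and none was at 0 in all libraries. By the likelihood ratio test 2 of them were called, against 1.65% of all features. These were Gja1, a gap junction protein (−0.41), and S100b, a calcium-binding protein (−0.35). Their adjusted p in the quasi-likelihood test was 0.144 and 0.175, above the threshold of 0.1, and by DESeq2 it was 0.0284 and 0.0633, below it. No correlation between Grin2c and the astrocyte sum was computed. Within the libraries labelled WT their order was not shared. NK10 had the highest Grin2c (4.34 CPM) and the lowest astrocyte sum (391), and NK7 had the highest sum (451) with Grin2c at 3.10 CPM. Under the TAAR5-KO label, NK4, NK5 and NK6 were the 3 highest in both Grin2c (2.60, 2.47 and 2.48 CPM) and the astrocyte sum (383, 384 and 351 CPM). The summed markers of microglia were 27.8 to 39.5 against 39.3 to 48.4 CPM, with 7 of 7 fold changes below 0. The likelihood ratio test called 2 of these 7, whose adjusted p was 0.180 and 0.188 in the quasi-likelihood test and 0.0796 and 0.0892 by DESeq2. The sums were 9.89 to 13.6 against 12.3 to 15.2 for oligodendrocyte precursors and 592 to 722 against 626 to 807 for mature oligodendrocytes. The part of these glial types in the Grin2c difference was not tested. In bulk tissue, fewer cells of a type and less RNA per cell cannot be told apart.

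**Figure D2:**
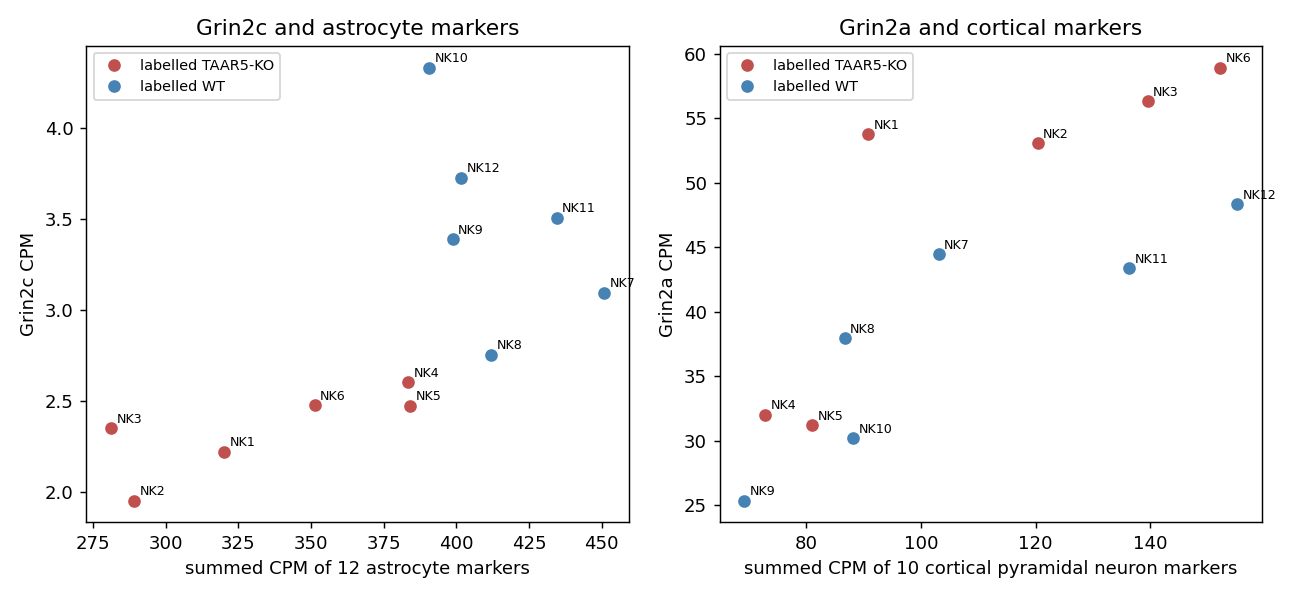
Left, Grin2c CPM against the summed CPM of 12 astrocyte markers, and right, Grin2a CPM against the summed CPM of 10 cortical pyramidal neuron markers, with 1 point per library (red, labelled TAAR5-KO; blue, labelled WT); the axes do not start at 0. On the left both measures part the labels. On the right the library with the highest cortical sum of each label (NK6 and NK12) has the highest Grin2a of that label, but NK1 has 53.8 CPM of Grin2a at a sum of 90.8.

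Grin1, Grin2a and Grin2b had higher means in libraries labelled TAAR5-KO, but none of the 3 passed the test. Grin1 had 17.7 to 22.6 CPM (median 20.1) in libraries labelled TAAR5-KO and 12.9 to 22.2 CPM (median 17.1) in libraries labelled WT. Grin2a had 31.2 to 58.9 CPM (median 53.4) against 25.4 to 48.4 CPM (median 40.7). Grin2b had 111 to 183 CPM (median 163) against 102 to 167 CPM (median 131). The groups overlapped for all 3 genes. For Grin2a, 4 libraries labelled TAAR5-KO lay above all labelled WT while NK4 and NK5 (32.0 and 31.2) lay near the bottom, and for Grin2b 3 lay above all labelled WT with the same 2 libraries lowest within their label.

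The log2 fold change of Grin1 was 0.20 (SE 0.118, 95% interval −0.035 to 0.43, adjusted p = 0.529 in the likelihood ratio test). Those of Grin2a and Grin2b were 0.31 (SE 0.180, interval −0.046 to 0.66, adjusted p = 0.510) and 0.23 (SE 0.143, interval −0.051 to 0.51, adjusted p = 0.552). With 6 libraries per label, rises of up to 0.43 for Grin1, 0.66 for Grin2a and 0.51 for Grin2b lie within these intervals. On library size as the only scaling, where the median of all features shifted to −0.49, the 3 values were −0.37, −0.39 and −0.45, so their sign turned under that scaling. With the GC trend removed, Grin1 had 0.30 (unadjusted p = 0.00290, adjusted p = 0.188), and with the trend on gene length removed, Grin2b had 0.11 (adjusted p = 0.804).

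Markers of cortical and spiny neurons were set beside these values. The summed CPM of 10 cortical pyramidal neuron markers was 72.8 to 152 in libraries labelled TAAR5-KO and 69.2 to 155 in those labelled WT. NK4 and NK5, the libraries labelled TAAR5-KO with the least Grin2a, had the lowest cortical sums of their label (72.8 and 81.0), and NK9, with the least Grin2a of all, had the lowest sum of all. Other libraries did not follow this order. NK1 had a sum of 90.8 with Grin2a at 53.8 CPM, and NK12 had a sum of 155 with Grin2a at 48.4 CPM. No correlation between Grin2a and the cortical sum was computed. The 12 spiny neuron markers summed to 340 to 441 CPM in libraries labelled TAAR5-KO and to 200 to 380 CPM in libraries labelled WT, with 11 of 12 fold changes above 0, 0 called and none at 0 in all libraries. NK4 and NK5 were not low in that sum (441 and 400). Interneuron markers summed to 31.4 to 42.8 against 34.4 to 39.6 CPM and endothelial markers to 6.16 to 8.36 against 5.97 to 8.14 CPM. Ependyma and choroid plexus markers ranged widely under both labels, from 2.37 to 461 (NK4) and from 5.13 to 281 CPM, and none of their genes was called. The part of these cell types in the subunit values was not tested.

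**Figure D3:**
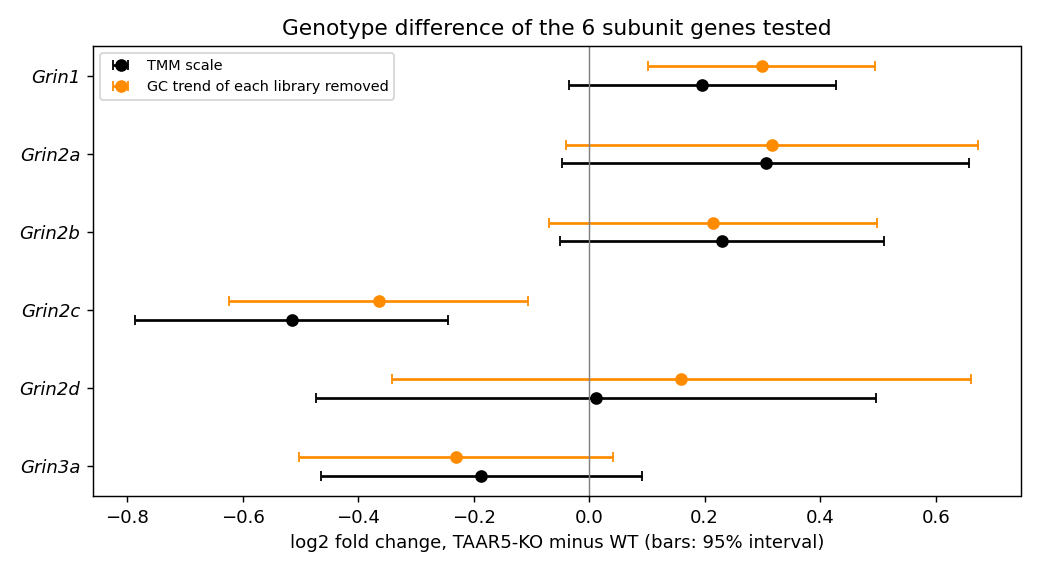
Log2 fold change (TAAR5-KO label minus WT label) of the 6 subunit genes tested, with bars of the 95% interval, on the TMM scale (black) and with the GC trend of each library removed (orange). Only Grin2c on the TMM scale (−0.51) passed the threshold after adjustment over all features, and its value moved to −0.36 with the GC trend removed.

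Grin2d and Grin3a did not pass the test either. Grin2d had 0.486 to 1.89 CPM (median 1.29) in libraries labelled TAAR5-KO and 0.843 to 1.66 CPM (median 1.22) in libraries labelled WT. The lowest and the highest of the 12 libraries, NK3 and NK5, both carried the TAAR5-KO label. Its log2 fold change was 0.012 (SE 0.247, 95% interval −0.47 to 0.50, adjusted p = 0.991 in the likelihood ratio test). Its 6 to 49 counts per library leave changes of this width undetectable, and its sign turned in 6 of the 12 fits without 1 library.

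Grin3a had 4.70 to 8.43 CPM (median 6.18) in libraries labelled TAAR5-KO and 5.90 to 8.07 CPM (median 7.19) in libraries labelled WT. Of the libraries labelled TAAR5-KO, 3 lay below all labelled WT and NK2 lay above all of them. The log2 fold change of Grin3a was −0.19 (SE 0.142, interval −0.46 to 0.091, adjusted p = 0.645). Under the TAAR5-KO label all 6 libraries had 0 counts of Grin3b, and under the WT label they had 0, 1 or 2, which makes 5 counts. A count of 0 allows up to 3 counts, or 0.0782 to 0.243 CPM in the libraries labelled TAAR5-KO, so no fold is given and a difference was not detectable at this depth. The methods name no molecular identifiers, and the floors cover counting error only.

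The composition of the family was compared as the share of each gene in the sum of the 7, in counts per kb, which needs no scaling between libraries. Grin2b held 51.0% ± 3.31 (SD, n = 6) of the family sum in libraries labelled TAAR5-KO and 49.4% ± 3.28 in those labelled WT. Grin2a held 21.6% ± 3.07 and 19.9% ± 2.64, and Grin1 17.4% ± 2.54 and 16.7% ± 1.71. These shares overlapped and did not differ beyond their spread (two-sided exact permutation tests, p = 0.433, 0.303 and 0.561).

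The share of Grin2c was the smaller in libraries labelled TAAR5-KO. It ran from 2.84% to 5.49% (median 3.68%) in libraries labelled TAAR5-KO and from 4.82% to 9.65% (median 6.30%) in libraries labelled WT. The means were 3.98% ± 1.01 and 6.62% ± 1.73 (SD, n = 6 each), a difference of −2.64 percentage points (two-sided exact permutation test, p = 0.0108). Unlike the CPM, the shares overlapped, through NK4 and NK5 (5.49% and 4.90%), the libraries with the least Grin2a and Grin2b of their label. Leaving out each library in turn gave −2.99 to −2.03 points with exact p between 0.00649 and 0.0195. The size of the difference depends on the length used. It was −1.13 points with the longest transcript (exact p = 0.00866) and −0.743 points without division by length (exact p = 0.0108). No GC correction was run for the shares. The shares of Grin3a were 4.35% ± 1.36 and 5.51% ± 0.926 (exact p = 0.108), those of Grin2d 1.63% ± 0.811 and 1.76% ± 0.430 (exact p = 0.729), and those of Grin3b 0% and 0.162% ± 0.180 (exact p = 0.0606, resting on 5 counts). A total of 10 such values were compared, 7 shares and 3 ratios, and their p-values are not adjusted. The 7 shares sum to 100% and are not independent, and the smallest p that the 924 assignments allow is 0.00216.

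**Figure D4:**
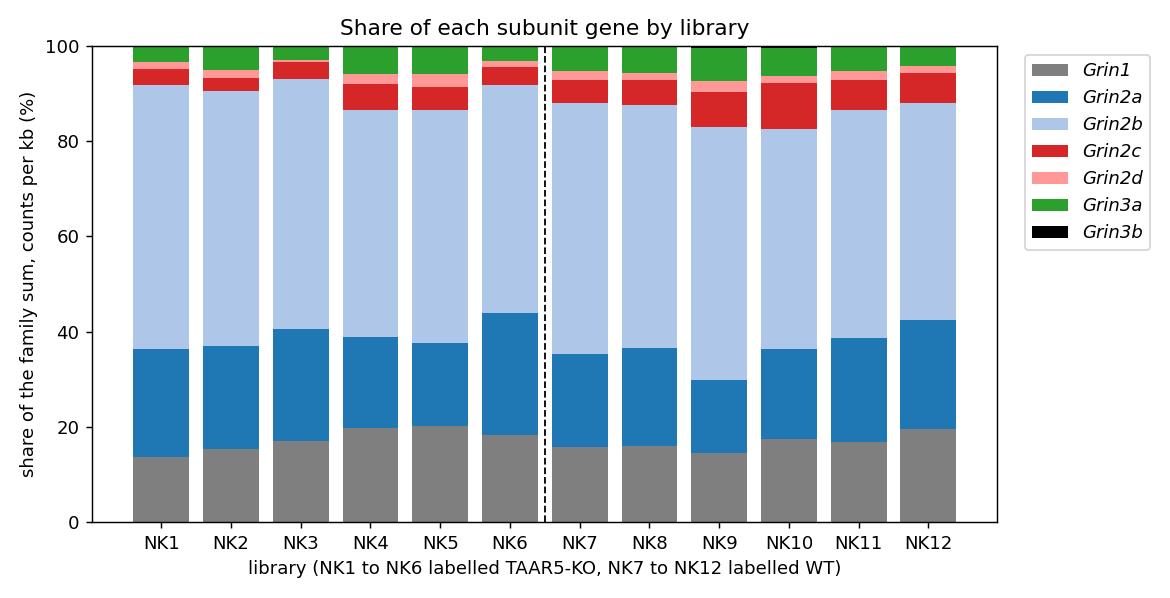
Share of each subunit gene in the sum of the 7 (percent, counts per kb of merged exons), with 1 stacked bar per library, TAAR5-KO label on NK1 to NK6 and WT label on NK7 to NK12. Grin2b takes the largest part of every bar (45.5% to 55.6%), and the red Grin2c band is 2.84% to 5.49% left of the dashed line and 4.82% to 9.65% right of it.

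Ratios between subunit classes did not differ past the threshold of 0.05. The log2 ratio of Grin2a to Grin2b was −1.25 ± 0.203 in libraries labelled TAAR5-KO and −1.32 ± 0.273 in those labelled WT (SD, n = 6 each, two-sided exact permutation test, p = 0.604). The log2 ratio of the summed GluN2 genes to Grin1 was 2.18 ± 0.277 and 2.22 ± 0.163 (exact p = 0.732). That of the summed GluN3 genes to Grin1 was −2.05 ± 0.412 and −1.57 ± 0.391, a difference of −0.48 (exact p = 0.0736). It passed 0.05 without NK2 (−0.56, exact p = 0.0498) or NK12 (−0.61, exact p = 0.0108).

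Across the 12 libraries, Grin2a and Grin2b rose and fell together. Their log2 CPM had Pearson's r = 0.83 and Spearman's rho = 0.86 (permutation p = 0.00141 and 7.80e-04, Benjamini–Hochberg adjusted over the 15 pairs 0.0177 and 0.0117). It was 0.81 without NK9 and NK10, the libraries farthest from the median of Grin2a. Within labels r was 0.89 (exact permutation p = 0.0653) and 0.66 (exact permutation p = 0.160), TAAR5-KO first.

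Grin1 and Grin2a had r = 0.78 and rho = 0.72 (permutation p = 0.00236 and 0.0104, adjusted 0.0177 and 0.0518). It was 0.54 without NK9 and NK10, 0.52 within the TAAR5-KO label (exact permutation p = 0.247) and 0.96 within the WT label (exact permutation p = 0.00139). Grin2d and Grin3a, both of low level, had r = 0.75 and rho = 0.75 (permutation p = 0.00438 and 0.00673, adjusted 0.0219 and 0.0505), with r = 0.63 without NK3 and NK5, and 0.80 and 0.74 within labels (exact permutation p = 0.0361 and 0.0972). Grin2b and Grin2c ran in opposite directions, with r = −0.67 and rho = −0.64 (permutation p = 0.0186 and 0.0290, adjusted 0.0698 and 0.109). The r between Grin2b and Grin2c was −0.79 and −0.65 within labels (exact permutation p = 0.05 and 0.129) and −0.47 without NK1 and NK2. No other pair had an adjusted p under 0.1. The libraries share depth, composition and dissection, so the pairs are not independent. No GC correction was run for the correlations, and the exons of Grin2b and Grin2c have 45.8% and 62.0% GC. NK1 and NK2 had the most negative GC slopes (−0.22 and −0.10). The part of GC content in these correlations was not tested.

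The features whose log2 CPM was most like each member over the 12 libraries are given as a description. Grin1 was most like Ugcg (r = 0.96), Cacna1i (0.95) and Cacna1a (0.93), the last 2 being calcium channel genes. For Grin2a they were Enc1 (0.97) and D430041D05Rik (0.96), and for Grin2b Erc2, a presynaptic active zone gene (0.97), Unc80, a subunit gene of a sodium leak channel complex (0.97), and Cpeb4 (0.97). Grin2c was most like Disp3 (0.94), Capzb, the beta subunit of an actin capping protein (0.91), and Gstp1, a glutathione transferase (0.90). Disp3 had 1.26 ± 0.171 CPM in libraries labelled TAAR5-KO and 2.04 ± 0.454 in those labelled WT (SD, n = 6 each), and its log2 fold change was −0.63 (SE 0.189) with an adjusted p of 0.0691 in the likelihood ratio test. Since Disp3 was picked by its likeness to Grin2c in the same libraries, this difference is not independent of that of Grin2c. The study lists Disp3 as lower in the knockout from these same samples, so its listing is not independent either. Grin2d was most like Acadvl (0.90), Tedc2 (0.90) and Gm28756 (0.89), all at low counts, and Grin3a was most like Cntnap4 (0.94), Abcb10 (0.88) and Rlbp1 (0.87).

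Other genes of glutamate signalling were counted from 8 lists. Of their 86 genes, 84 were tested and 3 were called (3.57%, against 1.65% of all features), 1 higher and 2 lower. Among the other ionotropic glutamate receptor genes none was called. The 4 AMPA receptor subunit genes, which carry fast excitatory transmission, had log2 fold changes of 0.071 to 0.35 (median 0.23), with Gria2 at 100 ± 20.0 against 78.7 ± 6.60 CPM (SD, n = 6 each, log2 fold change 0.35, SE 0.124, adjusted p = 0.164) and Gria1 at 49.0 ± 5.78 against 46.6 ± 4.17 CPM (0.071, adjusted p = 0.842). The 5 kainate receptor genes ran from −0.21 to 0.30 (median −0.051), with Grik2 at 0.30 (adjusted p = 0.263) and Grik3 at 0.11 (adjusted p = 0.811). Of the delta receptor genes none was called, with Grid1 at −0.026 (SE 0.102, adjusted p = 0.953).

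Neto2, an auxiliary subunit gene of kainate receptors, was higher in libraries labelled TAAR5-KO. It had 22.0 to 26.4 CPM in libraries labelled TAAR5-KO and 16.2 to 20.6 CPM in libraries labelled WT, without overlap. A full separation in this direction was found for 0.626% of all features tested. Neto2 rose by 0.35 on the log2 scale (SE 0.0852) with an adjusted p of 0.0118. It stayed past the threshold in 12 of 12 fits without 1 library, by the quasi-likelihood test (adjusted p = 0.0697) and by DESeq2 (adjusted p = 0.00311). With the GC trend removed Neto2 had 0.19 (adjusted p = 0.439). It was the 1 called gene of the 18 on the list of trafficking and downstream partners, against 1.65% of all features. The most abundant genes of that list were Kalrn (0.17, adjusted p = 0.745) and Rasgrf1 (−0.072, adjusted p = 0.856).

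Camk2d, the delta subunit of calcium/calmodulin-dependent kinase II, was lower, with 11.4 to 17.7 CPM in libraries labelled TAAR5-KO against 17.8 to 22.2 CPM. The highest library of the former and the lowest of the latter, NK5 and NK12, were 17.70 and 17.79 CPM, so the groups were apart by little. Of all features tested, 0.388% were fully separated in this direction. The log2 fold change of Camk2d was −0.37 (SE 0.110, adjusted p = 0.0692), past the threshold in 5 of 12 fits without 1 library. Its adjusted p was 0.151 in the quasi-likelihood test and 0.0621 by DESeq2. With the GC trend removed Camk2d had −0.50 (adjusted p = 8.25e-04). The other 17 kinase and phosphatase genes were not called, among them Camk2a (−0.14, adjusted p = 0.795) and Ppp3ca, a calcineurin catalytic subunit (0.29, adjusted p = 0.162).

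Slc17a6, a vesicular glutamate transporter gene, had 1.48 to 4.77 CPM in libraries labelled TAAR5-KO and 3.12 to 12.5 CPM in libraries labelled WT. For Slc17a6 the fitted log2 fold change was −0.93 (SE 0.292, adjusted p = 0.0970). It rested on NK11, which had 12.5 CPM and the lowest spiny neuron sum: without NK11 the value was −0.57 (adjusted p = 0.374), and 4 of 12 fits without 1 library passed. Its adjusted p was 0.232 in the quasi-likelihood test and 0.197 by DESeq2, and with the GC trend removed Slc17a6 had −0.99 (adjusted p = 0.104). The other 7 genes of glutamate uptake and vesicle loading were not called, among them the astrocyte transporter gene Slc1a2 (940 ± 101 against 969 ± 60.0 CPM, SD, n = 6 each, log2 fold change −0.044) and Glul, glutamine synthetase (−0.095, adjusted p = 0.737).

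None of the 18 scaffold genes was called (median −0.019). The most abundant were Cnksr2 (0.33, SE 0.127, adjusted p = 0.213) and Dlg2 (0.031, adjusted p = 0.939). Of the 13 genes listed for the synthesis, transport and breakdown of glycine and D-serine, 11 were tested and 0 called. Their median log2 fold change was −0.16 with 8 of 11 values below 0, and their summed CPM was 39.2 to 43.7 in libraries labelled TAAR5-KO and 44.1 to 47.1 in those labelled WT. The sum adds genes of opposite roles, so it is not a measure of co-agonist supply. The most abundant were Psat1, a serine synthesis enzyme (−0.16, SE 0.0859, adjusted p = 0.439), and Srr, serine racemase (0.052, adjusted p = 0.914).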

How the data were processed

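The authors isolated total RNA from the striatum, depleted ribosomal RNA, sequenced directional libraries as single-end reads (100 bases). Per the submitters' processing notes and the methods, the authors trimmed reads with cutadapt 4.1, aligned them with STAR 2.7.11b to GRCm39 (GENCODE M35) and deposited whole-number counts per gene from featureCounts 2.0.6, not normalized and not pooled, with merged exon lengths. The strand setting and the treatment of multi-mapped reads are not given in the sources used here. A further 12 columns of per-library counts match no sample and were not used. Columns carry a genotype but no animal number.

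Computed here: TMM factors, features with at least 0.5 CPM in at least 3 libraries, glmFit and glmLRT of edgeR 4.0.16 (R 4.3.3), with calls at an adjusted p (Benjamini–Hochberg over all 13902 features) under 0.1, the test and threshold of the study. The study's calls were not reproduced in number. It tested and called fewer features, with more of them lower than higher in the knockout, whereas 133 were higher and 96 lower here. With the CPM filter taken on TMM library sizes, 13053 features were tested, the number the study reports. Of these 234 were called, 135 higher and 99 lower, so the difference in calls remained. Standard errors come from the same fit. Alternatives were the quasi-likelihood test, DESeq2 1.42.0, other scalings, filters and dispersions, removal of GC or length trends (loess, span 0.5) and leaving out each library. Shares, ratios and slopes were compared by two-sided exact permutation over 924 assignments, and correlations by 100000 permutations of log2 CPM (prior count 2), exact within labels. Exons and GC content were read from the GRCm39 genome at the table's exon coordinates, and coding sequences from GENCODE M39. Total counts per library limit precision as the text gives it; p-values measure the spread between these animals' libraries.

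The named genes were all members, Taar5, the 3 features most like each tested member, and from each list the called genes (at most 4) and the 2 with the highest mean CPM. Members, lists and markers were chosen with earlier results of these data known. Gja1 and S100b were named after their values were seen. Members of the microglia and oligodendrocyte lists are not reported one by one, and some genes and sequences that these rules name are not reported here.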

Additional observations from a re-analysis of the deposited data

How the results depend on the processing

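On library size alone, Grin1, Grin2a, Grin2b and Grin2d had log2 fold changes of −0.37, −0.39, −0.45 and −0.43, and Grin2c −0.97 (adjusted p = 0.700). Grin2c also missed the threshold with no filter (−0.55, adjusted p = 0.148), with the GC trend removed (−0.36, adjusted p = 0.244) and without NK1 and NK12 (−0.45, adjusted p = 0.188), the libraries of the most negative and most positive GC slope, a setting chosen after seeing the data. Without 1 library each, Grin2c ran from −0.57 to −0.46 (past the threshold in 9 of 12 fits) and Grin2d from −0.17 to 0.15. Grin2d was −0.0020 with ribosomal RNA left out, −0.014 with no filter and −0.016 without NK1 and NK12. The cause was not tested. Grin3a kept its sign and stayed uncalled under all 25 alternatives (−0.27 to −0.11 without 1 library, nearest to 0 without NK6 and, at −0.12, NK3), and Grin1, Grin2a and Grin2b under all but library size.

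Features called numbered 229 (1654 at an unadjusted p under 0.05), but 63 by the quasi-likelihood test, 7 on library size alone (0 higher and 7 lower, against 133 and 96), 93 with no filter, 87 with the GC trend removed, 108 at an adjusted p under 0.05, 93 without NK1 and NK12, and 85 to 414 without 1 library (lowest without NK11, highest without NK4). With the GC trend removed, 55 were higher and 32 lower.

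The Grin2c share kept its direction and its side of 0.05 under all 15 alternatives, none of which corrected for GC content. Without NK1 and NK12, the Grin2b share differed by −0.149 points and the GluN3 to Grin1 log2 ratio by −0.62 (exact p = 0.0159). Without 1 library each, differences ran from −0.366 to 0.0899 points for the Grin2d share, −0.195 to −0.113 for the Grin3b share (exact p = 0.0152 without NK8 or NK11), −0.012 to 0.15 for the log2 ratio of Grin2a to Grin2b, −0.13 to 0.016 for GluN2 to Grin1 and −0.61 to −0.36 for GluN3 to Grin1. No paired analysis was possible because the columns carry no animal number.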
